A study of Mus musculus with 6 samples.

Results

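The p53 pathway was followed through 31 mouse genes, p53 itself (Trp53) and 30 genes known as its targets or feedback partners, in bone marrow cells with and without a truncated epidermal growth factor receptor. The genes were taken by name from a list of p53 and its targets, drawn up with earlier results of these data known, and all 31 were found by symbol among the 50763 genes of the table. RNA had been sequenced from sorted CD34- KSL cells, the lineage-negative, c-Kit+ and Sca-1+ marrow fraction in which long-term haematopoietic stem cells are enriched. All mice carried Tal1-tTA, a doxycycline-repressible activator driven from the blood gene Tal1, together with its target TRE-EGFR-tr. In the EGFR-DN group (n = 3) no doxycycline was given, so Tal1-driven cells were designed to make receptor lacking the cytoplasmic tyrosine kinase domain. In the EGFR-WT group (n = 3) the same genotype drank doxycycline at 0.2 g/L, which was to keep the truncated receptor off. Effects of the drug and of the transgene therefore cannot be told apart. The labels give no age and do not say whether marrow was pooled or which libraries came from different animals, and the spread behind each p-value may thus be partly technical.

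The p53 protein is a transcription factor that is held low by the ubiquitin ligase Mdm2 and its partner Mdm4, and is released by DNA damage and other stresses. It then activates genes that halt the cell cycle, restrain growth, repair DNA or bring about cell death, and also activates Mdm2 and the phosphatase gene Ppm1d, which shut the response down again. In haematopoietic stem cells p53 is known for maintaining quiescence and for removing damaged cells after irradiation.

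The 6 libraries held 24073133 to 36032428 counts. Egfr, the altered gene, had 4022, 4758 and 991 counts in EGFR-DN, against 6 counts in each EGFR-WT library, as the labels have it. Levels are given as CPM, counts scaled for depth by the trimmed mean of M-values (TMM), and 3 counts corresponded to 0.0799 to 0.152 CPM, a floor that covers counting error only. Egfr in EGFR-WT, at 0.191, 0.160 and 0.237 CPM, was close to that floor, so almost no transcript of the normal receptor was detected there. Log2 fold changes are EGFR-DN over EGFR-WT from edgeR's quasi-likelihood test across all 19313 genes that passed the count filter, with their standard error (SE) and with p-values adjusted by Benjamini-Hochberg over all of those genes, at a threshold of 0.05. The surface markers of the sort were present, with Kit at 736, 806 and 1962 CPM in EGFR-DN and 806, 786 and 771 CPM in EGFR-WT. Transcripts of other lineages were present too: among B lineage genes Pax5 stayed at or below 0.152 CPM but Cd79b was at 21.4 to 39.6 CPM, and among T and NK genes Cd3e stayed at or below 0.254 CPM but Nkg7 was at 98.9 to 226 CPM over the 6 libraries. Cd34 transcript was present at 569, 534 and 378 CPM in EGFR-DN and 318, 410.3 and 404 CPM in EGFR-WT, although the cells were sorted for lack of the surface protein. EGFR-DN replicate 3 stood apart from the other libraries, with 25.4% of its counts in 8 genes of rRNA or of reads that resemble it, against 4.71% to 6.15% in the other 5. Results are therefore also given without it, which leaves 2 EGFR-DN libraries.

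The upstream sequences of 4 genes are shown. Btg2, Plk2 and Cdkn1a were picked from the genes that did not overlap between the groups, although none of the 3 passed by edgeR over all 6 libraries. Other genes that did not overlap are not shown. Ccng1 held the only paired p53 motif found upstream of any of the 31 genes and did not pass any test. Cdkn1a, which is not among the 31, held paired motifs too. The sequences are RefSeq sequences of build GRCm38.p6, from 250 bases before to 50 after a transcript start, printed in the direction of transcription. Capitals mark 10-base p53 decamers, a pair of which forms the p53 consensus element. The reverse complement of a decamer has the same form, so that both strands are read at once. Decamers with up to 1 letter off are included where they stand in a pair with at most 13 bases between them. Ccng1 lies at chr11:40755237-40755536 on the minus strand, Btg2 at chr1:134079106-134079405 on the minus strand, Plk2 at chr13:110394794-110395093 on the plus strand, and the more upstream of 2 listed Cdkn1a starts at chr17:29090729-29091028 on the plus strand.
Ccng1: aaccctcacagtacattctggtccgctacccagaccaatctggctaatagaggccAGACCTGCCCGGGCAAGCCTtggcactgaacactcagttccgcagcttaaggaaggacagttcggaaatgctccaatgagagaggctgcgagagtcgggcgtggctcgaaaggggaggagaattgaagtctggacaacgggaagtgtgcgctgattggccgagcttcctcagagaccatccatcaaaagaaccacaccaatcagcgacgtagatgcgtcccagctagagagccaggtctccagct
Cdkn1a: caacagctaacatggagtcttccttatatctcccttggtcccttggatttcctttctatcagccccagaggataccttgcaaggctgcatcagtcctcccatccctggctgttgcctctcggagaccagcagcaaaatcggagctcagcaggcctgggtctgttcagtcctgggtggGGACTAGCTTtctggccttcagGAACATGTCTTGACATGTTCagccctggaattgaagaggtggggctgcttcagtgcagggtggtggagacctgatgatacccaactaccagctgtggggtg
Btg2: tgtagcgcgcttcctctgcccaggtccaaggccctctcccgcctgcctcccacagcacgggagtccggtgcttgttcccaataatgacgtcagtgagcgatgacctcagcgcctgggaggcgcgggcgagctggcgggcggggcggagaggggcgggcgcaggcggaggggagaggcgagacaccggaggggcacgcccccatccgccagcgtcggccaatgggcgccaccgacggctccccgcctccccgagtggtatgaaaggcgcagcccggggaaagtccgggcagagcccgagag
Plk2: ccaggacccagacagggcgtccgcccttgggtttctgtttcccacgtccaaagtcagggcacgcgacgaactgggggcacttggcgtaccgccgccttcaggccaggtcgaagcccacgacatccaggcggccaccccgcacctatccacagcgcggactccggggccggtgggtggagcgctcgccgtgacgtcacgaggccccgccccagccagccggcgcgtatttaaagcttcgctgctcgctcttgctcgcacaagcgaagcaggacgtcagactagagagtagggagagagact
An exact decamer was found in 11 of the 29 promoters listed for 23 of the 31 genes (37.9%), against 2745 of 32851 promoters of the same length (8.36%), and a pair in 1 of 29 (3.45%) against 2.71% of all. These counts are of promoters, not genes, and windows of the same gene can overlap. The decamer of Aen lay in both of its overlapping windows and is counted in each. The exact decamers began at positions −73 and −51 relative to the upstream Cdkn1a start and at −185 for Ccng1. In Cdkn1a the decamers at −73 and −51 stood as a pair. The decamer at −51 also paired with one at −41 that had 1 letter off. In Ccng1 the pair began at −195 and −185. The window of the other Cdkn1a start held none, and Btg2 and Plk2 had none in these windows. The other listed genes with an exact decamer were Trp53, Mdm2, Ppm1d, Bax, Aen, Ei24, Gadd45a, Sesn1 and Polk. Of the listed genes that did not overlap between the groups, Aen and Ei24 thus held one, while Btg2, Plk2, Tigar, Pidd1 and Eda2r held none. A match describes letters in a window and is not evidence of binding.

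Every one of the 31 genes was detected in every library, with 19 counts or more, and all passed the count filter. Taken per kilobase of transcript, so that genes can be compared, Trp53 had the highest mean level in both groups, at 112.2 CPM per kb in EGFR-DN and 75.1 CPM per kb in EGFR-WT. The death effector gene Bax followed with 56.0 and 67.9 CPM per kb in EGFR-DN and EGFR-WT, and the growth restrainer gene Sesn1 with 47.4 and 59.5. At the low end, the autophagy gene Dram1 averaged 0.770 CPM per kb in EGFR-DN and 0.561 in EGFR-WT, and the death receptor gene Eda2r 0.420 and 0.635. The 31 genes together took 0.117%, 0.120% and 0.116% of all counts in EGFR-DN and 0.121%, 0.115% and 0.117% in EGFR-WT. These shares have the rRNA-like counts in their total. On the TMM scale the sum of the 31 was 1131, 1165 and 1412 CPM in EGFR-DN and 1157, 1107 and 1126 CPM in EGFR-WT, with EGFR-DN replicate 1 inside the EGFR-WT range, replicate 2 just above it and replicate 3 well above all others.

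In the comparison of EGFR-DN with EGFR-WT over all 6 libraries, 0 of the 31 genes passed the threshold by edgeR, where 0.00518% of all tested genes did, the 1 gene being Egfr itself. At an unadjusted p under 0.05, Btg2 and Trp53inp1 were higher (2 of 31, beside 4.30% of all tested genes) and Plk2 was lower (1 of 31, beside 2.40%), which is 3 of 31 beside 6.69%. DESeq2 on the same libraries also called 0 of the 31, beside 0.775% of the 17410 genes to which it gave an adjusted p. Of the 31 log2 fold changes, 16 were above 0 and 15 below, with a median of 0.04, beside 51.0% above 0 and a median of 0.01 over all tested genes. The groups did not overlap for 7 genes. Btg2, Tigar and Pidd1 were higher in all 3 EGFR-DN libraries (3 of 31, beside 9.21% of all genes), and Plk2, Eda2r, Aen and Ei24 were lower in all 3 (4 of 31, beside 8.72%).

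**Figure D1:**
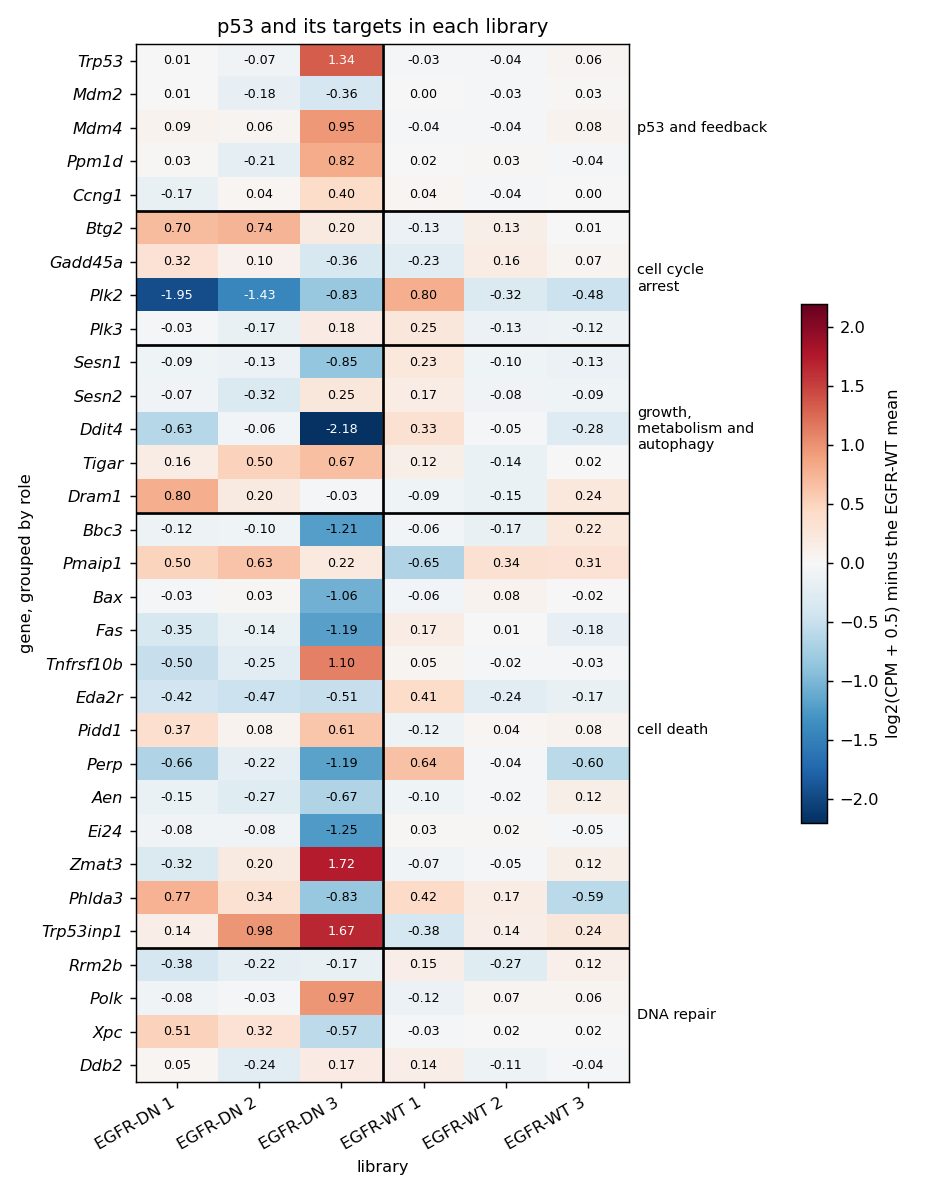
Rows are the 31 genes grouped by role, and columns are the 3 EGFR-DN and then the 3 EGFR-WT libraries. Colour and numbers give log2(CPM + 0.5) minus the EGFR-WT mean of that gene. In EGFR-DN replicate 3, 21 of 31 genes lie more than 0.5 from 0, against 8 and 5 in EGFR-DN replicates 1 and 2. EGFR-WT replicates 1 to 3, set against their own mean, have 3, 0 and 2. The share over all tested genes was not computed for these counts, but replicate 3 was lowest of the 6 libraries for 38.3% of all tested genes and highest for 38.1%.

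When EGFR-DN replicate 3 was left out, edgeR called 1 of the 31 genes, Btg2, which was higher, beside 0.286% of all genes tested in that fit (0.231% higher and 0.0552% lower). At an unadjusted p under 0.05 there were 4 of 31, Btg2 and Xpc higher and Plk2 and Aen lower, beside 13.6% of all genes. DESeq2 without that library called 3 of 31, Btg2 and Xpc higher and Plk2 lower. This stood beside 5.51% of the 16046 genes to which it gave an adjusted p. Of the 31 genes, 10 were above 0 and 21 below, with a median log2 fold change of −0.09, beside 48.9% above 0 and a median of −0.01 over all genes. For 17 of the 31 the log2 fold change then lay within 0.25 of 0, a count for which the share over all genes was not computed. The values of EGFR-DN replicates 1 and 2 both lay above every EGFR-WT library for 5 genes (Btg2, Tigar, Pmaip1, Pidd1 and Xpc, beside 16.3% of all genes), and both below for another 5 (Plk2, Tnfrsf10b, Eda2r, Aen and Ei24, beside 15.9%).

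**Figure D2:**
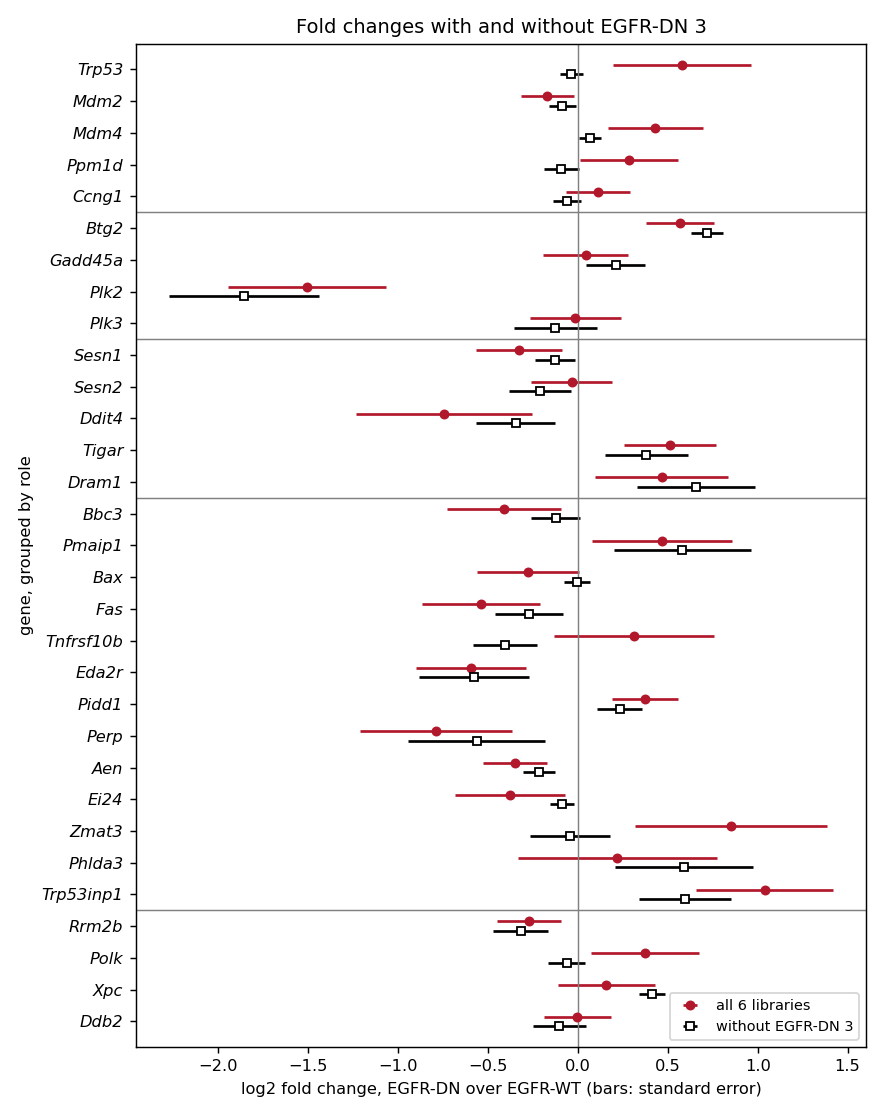
Points are log2 fold changes, EGFR-DN over EGFR-WT, with standard errors, from all 6 libraries (filled circles) and without EGFR-DN replicate 3 (open squares). Btg2 and Plk2 keep their side of 0 in both, whereas Trp53 moves to −0.04 from 0.58 and Zmat3 to −0.04 from 0.85 when that library is left out.

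The genes of p53 and its feedback regulators lay close to their EGFR-WT levels in EGFR-DN replicates 1 and 2 and away from them in replicate 3. Trp53 was at 134, 126 and 336 CPM in EGFR-DN and 131, 129.6 and 139 CPM in EGFR-WT. EGFR-DN replicate 1 lay inside the EGFR-WT range, replicate 2 just below it and replicate 3 above all others. The log2 fold change was 0.58 (SE 0.38, edgeR adjusted p = 0.690), and −0.04 (SE 0.06, edgeR adjusted p = 0.856) without replicate 3. Reads of Trp53 may be shared with the pseudogene row Trp53-ps, which held 402, 409 and 429 counts in EGFR-DN and 373, 471 and 284 in EGFR-WT, beside 4582, 4453 and 6631 counts and 4110, 4862 and 3524 counts of Trp53 itself.

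Mdm2, the ligase that degrades p53 and is also its target, was at 70.5, 61.9 and 54.4 CPM in EGFR-DN and 70.0, 68.7 and 71.5 CPM in EGFR-WT. One EGFR-DN library lay inside the EGFR-WT range and the other two below it (log2 fold change −0.17, SE 0.15, edgeR adjusted p = 0.714). Mdm4, the partner that blocks p53's activating domain, was at 108, 106 and 197 CPM in EGFR-DN and 98.9, 98.8 and 107 CPM in EGFR-WT. Its groups overlapped, with replicate 3 far above the rest (log2 fold change 0.43, SE 0.27, edgeR adjusted p = 0.690; 0.07, SE 0.06, without replicate 3). The phosphatase gene Ppm1d, at 31.03, 26.3 and 54.1 CPM in EGFR-DN and 30.8, 31.02 and 29.6 CPM in EGFR-WT, and the cyclin G1 gene Ccng1, at 82.3, 95.2 and 122 CPM in EGFR-DN and 95.0, 90.0 and 92.2 CPM in EGFR-WT, showed the same picture of overlap with replicate 3 highest. For these 5 genes, 4 log2 fold changes were above 0 with a median of 0.28 over all libraries, and 1 was above 0 with a median of −0.06 without replicate 3.

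Of the 4 arrest genes, 0 passed over all 6 libraries by edgeR or DESeq2. The groups did not overlap for Btg2, which was higher in EGFR-DN (beside 9.21% of all tested genes), and Plk2, which was lower (beside 8.72%). Btg2, an antiproliferative cofactor of mRNA deadenylation, was at 74.0, 76.4 and 52.1 CPM in EGFR-DN and 41.3, 49.6 and 45.6 CPM in EGFR-WT. All 3 EGFR-DN libraries were above all 3 EGFR-WT libraries, replicate 3 by the least. The means were 67.5 ± 13.4 and 45.5 ± 4.16 CPM (SD, n = 3 each), and the log2 fold change was 0.57 (SE 0.19, edgeR adjusted p = 0.690). Without replicate 3 it was 0.72 (SE 0.09, edgeR adjusted p = 0.0441), and the adjusted p over the alternatives lay between 2.59e-09 and 0.912.

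Plk2, a polo-like kinase gene induced by p53, was at 6.13, 9.02 and 13.9 CPM in EGFR-DN and 44.3, 19.96 and 17.9 CPM in EGFR-WT. All EGFR-DN libraries were below all EGFR-WT libraries, and EGFR-WT replicate 1 had the highest level of all 6. The log2 fold change was −1.50 (SE 0.44, edgeR adjusted p = 0.690), the lowest of the 31 genes. It was −1.86 (SE 0.42, edgeR adjusted p = 0.132) without EGFR-DN replicate 3 and −0.99 without EGFR-WT replicate 1 (edgeR adjusted p = 0.912), and the alternatives gave adjusted p between 0.0298 and 0.912. The related kinase gene Plk3 was at 3.76, 3.38 and 4.41 CPM in EGFR-DN and 4.67, 3.46 and 3.51 CPM in EGFR-WT (log2 fold change −0.01, SE 0.25). The damage-response gene Gadd45a was at 14.1, 11.9 and 8.57 CPM in EGFR-DN and 9.40, 12.5 and 11.7 CPM in EGFR-WT (0.04, SE 0.24), so the groups overlapped for both.

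**Figure D3:**
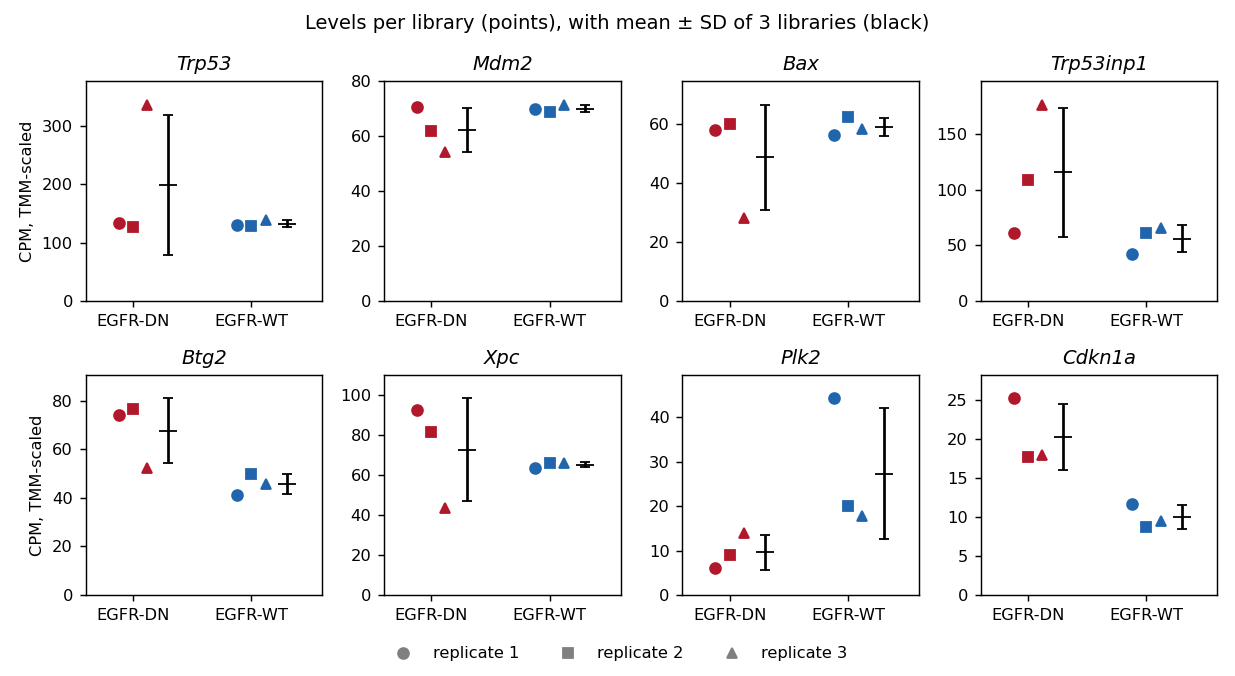
Points are TMM-scaled CPM of each library for 8 genes, EGFR-DN left and EGFR-WT right, with the shape giving the replicate and black bars the mean ± SD of 3 libraries. Btg2 and Cdkn1a are higher and Plk2 is lower in all 3 EGFR-DN libraries, while Trp53, Mdm2, Bax, Trp53inp1 and Xpc overlap between the groups.

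Genes by which p53 restrains growth and adjusts metabolism were mixed. Sesn1, a stress protein that restrains the growth kinase mTORC1, was at 144, 140.2 and 85.2 CPM in EGFR-DN and 180.1, 144 and 141 CPM in EGFR-WT. EGFR-DN replicate 1 lay inside the EGFR-WT range, replicate 2 just below it and replicate 3 well below it (log2 fold change −0.33, SE 0.24, edgeR adjusted p = 0.697). Ddit4, another mTORC1 restrainer, was at 20.9, 31.3 and 6.795 CPM in EGFR-DN and 41.0, 31.5 and 26.7 CPM in EGFR-WT. Its groups overlapped in EGFR-DN replicate 2 (−0.75, SE 0.49, edgeR adjusted p = 0.690; −0.35, SE 0.22, without replicate 3). Tigar, a fructose bisphosphatase gene that draws sugar away from glycolysis, was at 3.62, 4.74 and 5.38 CPM in EGFR-DN and 3.53, 2.85 and 3.23 CPM in EGFR-WT. Its groups did not overlap, with a narrow gap between EGFR-DN replicate 1 and EGFR-WT replicate 1 (0.51, SE 0.26, edgeR adjusted p = 0.690). For the sestrin gene Sesn2, at 6.61 to 10.1 CPM in EGFR-DN and 7.85 to 9.47 CPM in EGFR-WT, the log2 fold change was −0.04 (SE 0.23), and for the autophagy gene Dram1, at 1.52 to 3.09 CPM in EGFR-DN and 1.36 to 1.93 CPM in EGFR-WT, it was 0.47 (SE 0.37). The median of the 5 was −0.04, and −0.13 without replicate 3.

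Of the 13 death genes, 6 were above 0 and 7 below, with a median of −0.28 over all libraries. Without EGFR-DN replicate 3 there were 4 above and 9 below, with a median of −0.09. Bax, whose protein permeabilises the mitochondrial outer membrane, was at 57.8, 59.9 and 28.0 CPM in EGFR-DN and 56.3, 62.3 and 58.2 CPM in EGFR-WT. Its first 2 EGFR-DN libraries lay inside the EGFR-WT range and replicate 3 below it, and its log2 fold change was −0.28 (SE 0.28) with that library and −0.01 (SE 0.07) without. Bbc3, which encodes the BH3-only protein PUMA, followed the same pattern at 16.8, 17.0 and 7.61 CPM in EGFR-DN and 17.6, 16.3 and 21.5 CPM in EGFR-WT (−0.41, SE 0.32; −0.12, SE 0.14, without replicate 3). Ei24, at 52.9, 52.8 and 23.3 CPM in EGFR-DN and 56.96, 56.9 and 54.1 CPM in EGFR-WT, was lower in all 3 EGFR-DN libraries, but by little outside replicate 3 (−0.38, SE 0.30; −0.09, SE 0.07, without it). The BH3-only gene Pmaip1 was at 3.30, 3.66 and 2.64 CPM in EGFR-DN and 1.21, 2.90 and 2.84 CPM in EGFR-WT, with overlapping groups (0.47, SE 0.39).

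Trp53inp1, which encodes a p53-induced nuclear protein that promotes death and autophagy, had the highest log2 fold change of the 31. It was at 60.8, 109 and 176 CPM in EGFR-DN and 42.2, 60.8 and 65.2 CPM in EGFR-WT. EGFR-DN replicate 1 lay inside the EGFR-WT range and the other two above it (1.04, SE 0.38, edgeR adjusted p = 0.690; 0.60, SE 0.26, edgeR adjusted p = 0.371, without replicate 3). Zmat3, a zinc finger RNA-binding protein gene, was at 4.43, 6.61 and 19.9 CPM in EGFR-DN and 5.37, 5.46 and 6.23 CPM in EGFR-WT. Its log2 fold change of 0.85 (SE 0.53) rested on replicate 3, and was −0.04 (SE 0.22) without it.

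Death receptor genes were low in abundance. Fas was at 5.31, 6.18 and 2.74 CPM in EGFR-DN and 7.82, 6.93 and 6.03 CPM in EGFR-WT (log2 fold change −0.54, SE 0.33), with overlapping groups. Eda2r, a receptor of the tumour necrosis factor family, was at 2.07, 1.99 and 1.93 CPM in EGFR-DN and 4.07, 2.43 and 2.56 CPM in EGFR-WT. All EGFR-DN libraries were below all EGFR-WT libraries, of which replicate 1 was the highest (−0.60, SE 0.31; −0.58, SE 0.30, without EGFR-DN replicate 3). Tnfrsf10b, the TRAIL receptor gene, was at 4.55, 5.53 and 14.9 CPM in EGFR-DN and 6.93, 6.56 and 6.51 CPM in EGFR-WT, below the EGFR-WT range in 2 libraries and above it in replicate 3. The log2 fold change was 0.31 (SE 0.45) with and −0.41 (SE 0.18, edgeR adjusted p = 0.376) without replicate 3.

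Perp, a membrane protein gene of p53-dependent death, was at 3.79, 5.33 and 2.48 CPM in EGFR-DN and 10.1, 6.10 and 3.98 CPM in EGFR-WT, with a wide spread in both groups (−0.79, SE 0.42, edgeR adjusted p = 0.690). Aen, a nuclease gene, was at 47.3, 43.5 and 32.9 CPM in EGFR-DN and 48.8, 51.8 and 57.1 CPM in EGFR-WT, lower in all 3 EGFR-DN libraries (−0.35, SE 0.18). Pidd1, which encodes the scaffold of the PIDDosome, was at 21.99, 17.95 and 26.0 CPM in EGFR-DN and 15.6, 17.5 and 17.9 CPM in EGFR-WT, higher in all 3 EGFR-DN libraries with almost no gap (0.37, SE 0.18). Phlda3, an inhibitor gene of the kinase Akt, was at 3.94, 2.78 and 0.964 CPM in EGFR-DN and 2.99, 2.43 and 1.22 CPM in EGFR-WT, with overlapping groups (0.22, SE 0.55).

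The 4 repair genes had a median log2 fold change of 0.08, and −0.08 without EGFR-DN replicate 3. Xpc, which encodes the damage sensor of nucleotide excision repair, was at 92.6, 81.3 and 43.6 CPM in EGFR-DN and 63.5, 65.8 and 65.8 CPM in EGFR-WT. EGFR-DN replicates 1 and 2 lay above the EGFR-WT range and replicate 3 below it (0.16, SE 0.27, edgeR adjusted p = 0.813). Without replicate 3 the log2 fold change was 0.41 (SE 0.07), which did not pass by edgeR (adjusted p = 0.0760) and did by DESeq2 (adjusted p = 0.000312). Rrm2b, the p53-inducible ribonucleotide reductase subunit gene, was at 15.1, 16.8 and 17.4 CPM in EGFR-DN and 21.9, 16.2 and 21.4 CPM in EGFR-WT, with overlapping groups (−0.27, SE 0.18). Polk, a translesion polymerase gene, was at 21.4, 22.3 and 44.98 CPM in EGFR-DN and 20.8, 23.9 and 23.7 CPM in EGFR-WT, with replicate 3 alone above the EGFR-WT range (0.37, SE 0.30; −0.06, SE 0.10, without replicate 3). Ddb2, the other damage sensor gene, was at 13.6, 11.03 and 14.9 CPM in EGFR-DN and 14.6, 12.2 and 12.8 CPM in EGFR-WT (−0.0026, SE 0.18). Its exons overlap those of Acp2 on the opposite strand, and the library chemistry does not mark strand, so reads of the shared sequence cannot be assigned by strand. Acp2 held 1208, 1381 and 424 counts in EGFR-DN and 1331, 1474 and 938 counts in EGFR-WT. In all, 7 of the 31 genes share exon sequence with another annotated gene, 6 of them on the opposite strand.

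In EGFR-DN replicate 3, 25 of the 31 genes stood at one end of the 6 libraries, 13 lowest and 12 highest, beside 38.3% and 38.1% of all tested genes. The 13 lowest genes had a median transcript length of 1952 nucleotides and the 12 highest 3494. Across the 31 genes, the deviation of that library from the EGFR-WT mean had a Spearman correlation of 0.56 with transcript length, and of 0.35 across the 16713 tested genes with a length. In EGFR-DN replicates 1 and 2 the correlation across the 31 genes was −0.08 and 0.02, and in EGFR-WT replicates 1 to 3 it was −0.23, −0.20 and 0.43. These describe genes within single libraries, which are not independent replicates. Trp53 departed from this order, being high in replicate 3 with a transcript of 1771 nucleotides. The part of the 25.4% rRNA-like counts in these values was not tested.

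**Figure D4:**
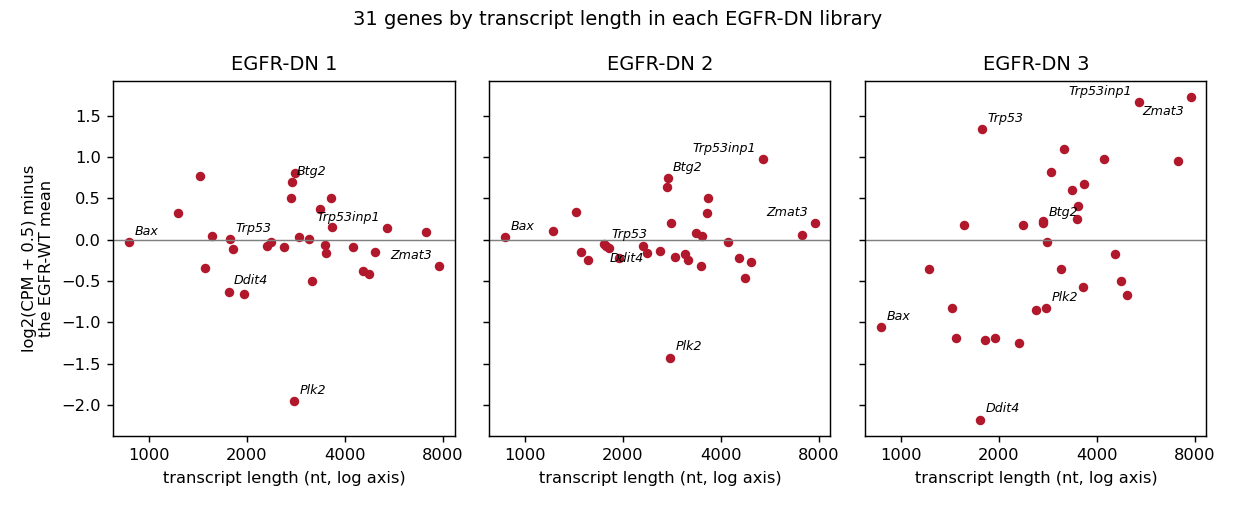
Each point is 1 of the 31 genes, with its transcript length on a log axis against log2(CPM + 0.5) minus the EGFR-WT mean, in 1 panel for each EGFR-DN library. Points slope upwards in EGFR-DN replicate 3 (Spearman 0.56), from Bax with 867 nucleotides to Zmat3 with 7797, and show no such slope in replicates 1 and 2.

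Other genes of the pathway were read from the same fit. Cdkn1a, the gene of the CDK inhibitor p21 and the classical arrest target of p53, was at 25.1, 17.6 and 17.9 CPM in EGFR-DN and 11.7, 8.71 and 9.504 CPM in EGFR-WT. All 3 EGFR-DN libraries were above all EGFR-WT libraries, replicate 3 included, with means of 20.2 ± 4.26 and 9.97 ± 1.54 CPM (SD, n = 3 each). The log2 fold change was 1.02 (SE 0.21), which did not pass by edgeR (adjusted p = 0.688) and passed by DESeq2 (adjusted p = 0.0126). Without replicate 3 it was 1.10 (SE 0.19, edgeR adjusted p = 0.0736), and its adjusted p lay between 2.35e-05 and 0.912 over the alternatives. Trp53cor1, a p53-induced long noncoding RNA transcribed near Cdkn1a, was at 6.07, 5.79 and 8.57 CPM in EGFR-DN and 3.05, 3.38 and 2.80 CPM in EGFR-WT. It too was higher in all 3 EGFR-DN libraries (1.14, SE 0.25, edgeR adjusted p = 0.690, DESeq2 adjusted p = 0.0121; between 0.00458 and 0.912 over the alternatives).

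Of 22 tested genes on the list of other p53 targets, 11 were above 0 and 11 below, with a median of 0.02. By edgeR 0 passed, with 2 higher and 1 lower at an unadjusted p under 0.05 (beside 4.30% and 2.40% of all tested genes), and by DESeq2 Cdkn1a and Trp53cor1 were the 2 that passed (beside 0.775%). Without EGFR-DN replicate 3, 15 of the 22 were above 0 with a median of 0.04. DESeq2 without that library called 3, all higher, beside 5.51% of the genes to which it gave an adjusted p. Of 18 tested upstream regulators of p53, 14 were above 0 with a median of 0.27, beside 51.0% above 0 and a median of 0.01 over all tested genes. By edgeR or DESeq2 over all libraries 0 passed, with 2 higher by edgeR at an unadjusted p under 0.05, beside 4.30%. Without EGFR-DN replicate 3 their median was 0.02, with 10 above 0. DESeq2 without that library called 1 of the 18, which was higher, beside 5.51% of the genes to which it gave an adjusted p. The damage kinase gene Atm was among those that stood out in replicate 3, at 76.3, 77.5 and 202 CPM in EGFR-DN and 80.3, 67.3 and 80.8 CPM in EGFR-WT, and it was named after its values were seen. The p53 relatives were nearly absent, with Trp63 at 0 counts in every library and Trp73 at 0, 17 and 2 counts in EGFR-DN and 0, 0 and 4 counts in EGFR-WT.

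Of 8 marker lists, none was tested as a list, and some stood apart between the groups beside Btg2, Cdkn1a and Plk2 while others overlapped. All 6 genes of the CD34 and progenitor list (Cd34, Cd48, Flt3, Satb1, Dntt and Il7r) had log2 fold changes above 0, with a median of 0.89 (0.90 without EGFR-DN replicate 3). Their summed level was 762 to 1571 CPM in EGFR-DN and 677 to 838 CPM in EGFR-WT, the lowest EGFR-DN value being replicate 3. Of 9 tested neutrophil and myeloid genes, 8 were above 0 and 1 (Lyz2) below. The list summed to 984 to 1505 CPM in EGFR-DN and 594 to 749.8 CPM in EGFR-WT, which did not overlap. The largest part of that sum was 1 gene, Mpo, at 653, 648 and 1261 CPM in EGFR-DN and 262, 429 and 328 CPM in EGFR-WT. Lyz2 was at 193, 205 and 80.9 CPM in EGFR-DN and 223, 212 and 201 CPM in EGFR-WT. This sum, too, does not describe its list as a whole. All 6 tested B lineage genes were above 0, with sums of 50.7 to 70.1 CPM in EGFR-DN and 36.4 to 47.6 CPM in EGFR-WT. The T and NK genes summed to 171 to 263 CPM in EGFR-DN and 140.1 to 167 CPM in EGFR-WT, most of it from Nkg7. Of the 5 tested T and NK genes, 3 were above 0 and 2 (Cd3g and Klrb1c) below. Klrb1c was lower in all 3 EGFR-DN libraries (log2 fold change −1.33, SE 0.40). The stroma and endothelium genes summed to 75.5 to 151 CPM in EGFR-DN and 50.7 to 66.9 CPM in EGFR-WT. Most of that sum was 1 gene, Pecam1, at 71.9, 69.5 and 143 CPM in EGFR-DN and 48.4, 56.8 and 50.5 CPM in EGFR-WT. Of the 4 tested genes of this list, 3 were above 0 and 1 (Lepr) below, and the sum does not describe the list as a whole. The erythroid genes, at 98.3 to 139.6 CPM in EGFR-DN and 89.9 to 112.9 CPM in EGFR-WT, and the megakaryocyte genes, at 395 to 664 CPM in EGFR-DN and 388 to 769 CPM in EGFR-WT, overlapped. The stem cell genes also overlapped, at 1375 to 3764 CPM in EGFR-DN and 1828 to 2167 CPM in EGFR-WT, the highest being EGFR-DN replicate 3. Of these 12 genes, 9 were below 0 over all libraries and all 12 without replicate 3, where the median was −0.66. No marker was at 0 in every library. The part of these cell types in the differences of Btg2, Cdkn1a and Plk2 was not tested, and in bulk RNA fewer cells of a type cannot be told apart from less RNA per cell.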

How the data were processed

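RNA was measured in 3 EGFR-DN and 3 EGFR-WT libraries of sorted marrow cells. Low-input SMART-Seq V4 cDNA went into Nextera XT libraries, per the labels' protocols, a chemistry that does not mark strand. Estimated counts for each gene symbol, unscaled and 79.4% whole, are what the authors deposited. DRAGEN, DESeq2 1.40.2, R 4.3.1 and build mm39 appear in the submitters' processing notes; annotation and use of strand: not given in the sources used here. Counts were rounded to whole numbers, filtered with filterByExpr, TMM-scaled and tested two-sided with edgeR 4.0.16 in R 4.3.3, adjusting by Benjamini-Hochberg over all tested genes. Alternatives were DESeq2 1.42.0, limma 3.58.1 (voom), other scalings and filters, a replicate block and leaving out each library. The standard error is the size of the log2 fold change over the square root of F. No library pair was a duplicate (lowest chi-square per degree of freedom 16.3). GENCODE M21 on GRCm38, an earlier build than that of the files, supplied transcript lengths and exon overlaps only. Deviations in the plots use a pseudocount of 0.5 CPM.

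Members and lists were chosen with earlier results of these data known. The rule for named genes took Trp53, Mdm2, the smallest p and highest CPM in each role group, the 5 highest and 5 lowest log2 fold changes, Cdkn1a, and any gene past the threshold by edgeR, DESeq2 or edgeR without EGFR-DN replicate 3; the other members were described to account for the whole list. Scripts were tested on simulated data.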

Additional observations from a re-analysis of the deposited data

How the results depend on the processing

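Each group held 3 libraries, the lowest count of a listed gene was 19, and the part of depth or library number in the count of calls was not tested. Over all genes, 135 passed by DESeq2, 0 by limma-voom, 188 by limma-voom with library quality weights, 884 by DESeq2 without EGFR-DN replicate 3 and 0 to 57 by edgeR with 1 library left out (57 without EGFR-DN replicate 3, 0 without any of the EGFR-WT replicates), against 1 in all 6 by edgeR. Of the 31 genes, 1 passed with quality weights, 3 by DESeq2 without EGFR-DN replicate 3 and 0 to 1 with 1 library left out. The weights and the DESeq2 fit without that library were added after seeing the data. The median log2 fold change of the 31 was −0.045 when scaled by library size alone, which moved the median of all genes to −0.10, 0.016 by limma-voom, 0.012 with no filter, −0.085 with weights, −0.083 by DESeq2 without EGFR-DN replicate 3, and −0.086 to 0.12 with 1 library left out. Library size alone gave −0.095 for the arrest genes, −0.17 for the growth, metabolism and autophagy genes and −0.024 for the repair genes. With 1 library left out, the growth genes ranged over −0.13 to 0.087 and the repair genes over −0.083 to 0.098; the repair genes were at −0.072 with weights and −0.080 by DESeq2 without EGFR-DN replicate 3. Trp53 was at −0.0079 with weights, −0.035 by that DESeq2 fit and −0.038 to 0.80 with 1 library left out. Zmat3 was at −0.0099 with weights, −0.042 by that DESeq2 fit and −0.045 to 1.21 with 1 library left out. Xpc ranged from −0.061 without EGFR-DN replicate 1 to 0.41 without replicate 3. The cause was not tested. In all, 271 of the single-gene values under alternatives kept their direction and side of the threshold, 11 newly passed it and 7 turned. Whether replicate numbers pair the libraries was not settled: deviations of same-numbered libraries correlated at −0.02, 0.05 and 0.06. EGFR-DN replicates 2 and 3 each correlated best with the EGFR-WT library of the same number. EGFR-DN replicate 1 correlated best with EGFR-WT replicate 2, at 0.10. With the replicate number as a block, 1 gene and 0 of the 31 passed, as without it.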
